A study of Mus musculus with 8 samples.

Results

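The comparison described here set Lats1-CKO basal-like cells against wild-type (WT) basal-like cells, with 4 of the 8 chromatin accessibility libraries of the study. ATAC-seq, in which the Tn5 transposase cuts and tags open chromatin, was done on cultured lines made from PyMT mouse mammary tumors of strain FBV/N, a model in which a viral oncogene drives mammary cancer. The lines were sorted by FACS on EpCAM and CD49f and expanded briefly, and the labels describe the basal-like population of both genotypes as EpCAM-low and CD49f-high. WT basal-like cells gave the libraries BM2 and BM6, and Lats1-CKO basal-like cells, from tumors with conditional deletion of Lats1, gave BM4 and BM8. The luminal population (EpCAM-high and CD49f-high) gave BM1 and BM5 from WT and BM3 and BM7 from Lats1-CKO lines, and these 4 libraries were used only to look up the regions found in basal-like cells. Per the study's methods a Lats1-CKO luminal replicate was discarded at quality control, and the sources used here do not say whether it was BM3, BM7 or another library. The promoter driving the Cre and the deleted exons are not given in the sources used here. The labels do not say whether the 2 libraries of a group came from separate lines, so the spread between them may be technical.

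LATS1 is a kinase at the core of the Hippo pathway, where it phosphorylates the coactivators YAP and TAZ and keeps them from the nucleus. Luminal mammary cells carry epithelial junctions built on E-cadherin, claudins and occludin, and the basal-like state shares features with epithelial-mesenchymal transition (EMT), in which such junctions are given up. Repressors of the SNAI and ZEB families act in EMT by binding E-box sequences such as CAGGTG in the promoters of epithelial genes.

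The Lats1 promoter (ENSMUSG00000040021, chromosome 10 of GRCm38, 7681214 to 7716460, plus strand) carried a peak in all 4 basal-like libraries. Its score percentile, the rank of a peak's score among all peaks of its own library, was 53.6 in BM2, 57.8 in BM6, 81.5 in BM4 and 74.7 in BM8. Percentiles are taken among all peaks of a library, so the larger number of weak peaks in the Lats1-CKO libraries raises the percentile of a strong peak there. Differences between genotypes were therefore read from ranks among promoters or regions with a peak in all 4 libraries. A peak at the start of the gene lies at a place not known to be within the deleted part, so it does not check the genotype. Epcam, whose protein was used for sorting, is among the promoters described below, and the labels give EpCAM-low for both genotypes.

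Merging overlapping peaks of the 4 basal-like libraries gave 148787 regions, 159 bp wide at the median. A region was called gained when it had a peak in both Lats1-CKO libraries and in neither WT library, lost in the reverse case, and shared when all 4 libraries had a peak. Of all merged regions, 9381 were gained (6.3%), 1633 were lost (1.1%) and 30612 were shared (20.6%). Many regions had a peak in a single library, with 33706 regions in BM8 alone, 24203 in BM4 alone, 12020 in BM2 alone and 4302 in BM6 alone.

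The number of peaks in a library moved with the genotype. BM2 held 70446 peaks and BM6 51497, whereas BM4 held 86279 and BM8 99022. The Lats1-CKO libraries thus lay above both WT libraries (mean 92651 ± 9011 against 60972 ± 13399, SD, n = 2 each), with a two-sided exact permutation p of 0.333, which is the smallest that 2 against 2 libraries allow. Sequencing depth per library is unknown, since the lists hold no read counts, and absence of a peak means only that none was called. When only the best-scoring 51497 peaks of every library were kept, the balance turned: 2656 regions were gained (2.87% of 92511) and 3349 were lost (3.62%). The ratio of gained to lost regions was 5.74 with all peaks and 0.793 with equal numbers. The excess of gained regions thus went with the number of peaks, whose part in it was not tested. The counts also changed with each library left out: gained and lost regions numbered 18293 and 6046 without BM2, 13011 and 13695 without BM6, 43296 and 3852 without BM4, and 33816 and 5351 without BM8. Without BM6, the library with the fewest peaks, lost regions outnumbered gained ones. The equal number, 51497, is the number of peaks in BM6, so that library lost none. A region gained with equal numbers thus has no BM6 peak and, apart from effects of merging, could not be shared with all peaks. Of the 2656 such regions 1 was shared, which is no result about gained regions. Of the 3349 regions lost with equal numbers, 720 were shared when all peaks were used.

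**Figure D1:**
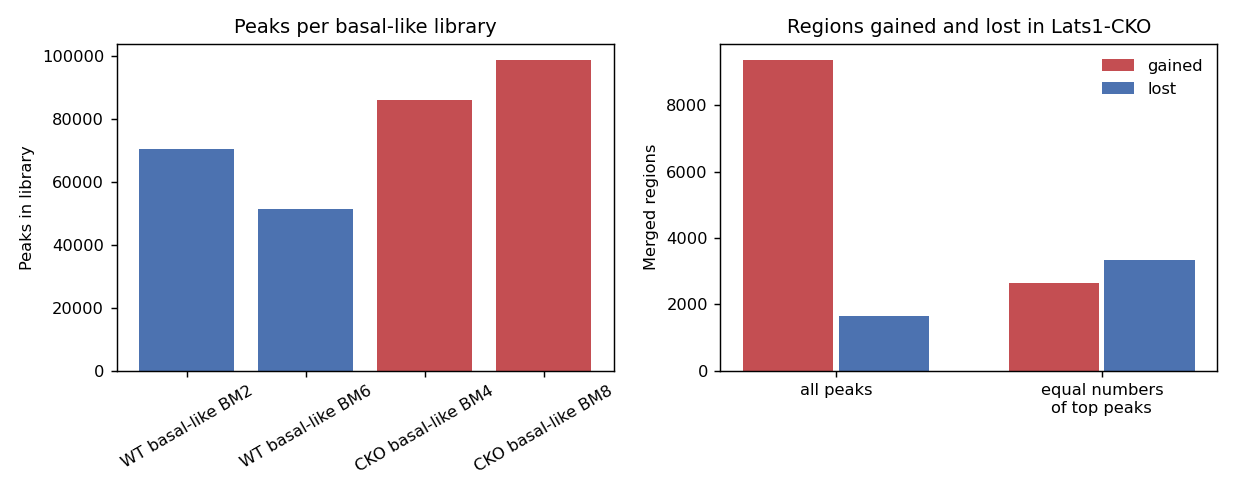
Left, number of peaks in each basal-like library (blue, WT; red, Lats1-CKO). Right, merged regions gained (red) or lost (blue) in Lats1-CKO cells, with all peaks and with 51497 peaks per library. Gained regions outnumbered lost ones 9381 to 1633 in the first case and were fewer, 2656 to 3349, in the second.

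Gained and lost regions were both weaker than shared ones by median score percentile. Their median score percentile was 36.8 in BM4 and 38.3 in BM8, compared with 77.3 and 79.8 for shared regions in the same libraries. Lost regions had a median percentile of 45.0 in BM2 and 28.4 in BM6, against 71.9 and 66.5 for shared regions. With both defining peaks among the highest-scoring ones, 1846 of the gained regions (19.7%) and 1156 of the lost regions (70.8%) remained. All 51497 peaks of BM6 are among the highest-scoring ones. The cut thus acted on lost regions through BM2 alone and on gained regions through BM4 and BM8, so these shares cannot be compared between the classes. Regions that just missed the gained class, with peaks in both Lats1-CKO libraries and 1 WT library, numbered 8858 for BM2 and 3619 for BM6, and the WT peak in them had a median percentile of 38.8 and 34.7. Those that just missed the lost class numbered 2196 with BM4 and 3675 with BM8.

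Promoters of 8 epithelial genes were among the losses. Among 21755 protein-coding genes, 97 (0.446%) had a peak within 1 kb of a transcription start site (TSS) in both WT and neither Lats1-CKO library, and 364 (1.67%) had the reverse. Of 25 luminal epithelial markers 4 were lost (16%), namely Cdh1, Cldn3, Epcam and Krt18, and 1 was gained (4%), namely the keratin gene Krt19. Its promoter peak stood at 67.5 in BM4 but at 1.8 in BM8, and it was not gained with equal numbers of peaks. Of 25 genes of epithelial junctions and splicing another 4 were lost (16%), namely Esrp2, Ocln, Marveld2 and Spint1. These 8 promoters were also lost with equal numbers of peaks. That outcome was fixed in advance, since the cut removes no BM6 peak and only BM2 peaks weaker than theirs. With equal numbers the lists had 4 and 6 lost members, while 0.952% of all coding genes were lost and 0.653% gained. Leaving out single libraries gave 189 (BM2), 339 (BM6), 226 (BM4) or 350 (BM8) lost genes and 917, 583, 852 or 819 gained ones. Lost luminal markers then numbered 4, 7, 4 and 5, and lost junction and splicing genes 4, 7, 4 and 8. The lists were drawn up with earlier results of these data known.

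The 4 promoter regions below, read from the plus strand of GRCm38 over the central 200 bp of the lost region, are shown because each holds the CAGGTG E-box (in capitals, on either strand as CAGGTG or CACCTG). Of the 8 lost promoters, 6 hold it in this window and Cldn3 and Krt18 do not.
Cdh1 promoter region, chr8:106603244-106603443: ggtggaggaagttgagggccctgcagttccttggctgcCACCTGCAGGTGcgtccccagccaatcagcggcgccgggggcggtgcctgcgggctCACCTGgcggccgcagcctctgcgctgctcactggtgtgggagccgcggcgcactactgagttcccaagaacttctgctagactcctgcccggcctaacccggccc
Epcam promoter region, chr17:87636505-87636704: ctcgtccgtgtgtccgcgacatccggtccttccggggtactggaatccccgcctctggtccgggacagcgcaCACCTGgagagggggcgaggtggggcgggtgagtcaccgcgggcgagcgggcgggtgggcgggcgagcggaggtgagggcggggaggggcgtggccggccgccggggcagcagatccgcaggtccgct
Esrp2 promoter region, chr8:106136818-106137017: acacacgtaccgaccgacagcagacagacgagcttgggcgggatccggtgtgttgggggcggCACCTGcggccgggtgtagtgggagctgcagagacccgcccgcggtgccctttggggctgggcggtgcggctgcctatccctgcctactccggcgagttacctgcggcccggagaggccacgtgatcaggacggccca
Ocln promoter region, chr13:100552626-100552825: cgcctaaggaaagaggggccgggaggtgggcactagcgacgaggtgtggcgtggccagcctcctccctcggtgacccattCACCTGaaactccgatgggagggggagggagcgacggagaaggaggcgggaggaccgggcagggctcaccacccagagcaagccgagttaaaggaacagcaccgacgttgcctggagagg

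Cdh1 (ENSMUSG00000000303, chromosome 8, 106603351 to 106670246, plus strand) encodes E-cadherin, the adhesion protein of epithelial junctions. Its promoter peak had score percentiles of 87.9 in BM2 and 67.2 in BM6 and was not called in BM4 or BM8. The lost region covers the TSS and part of the gene's annotated exons, and its printed window holds 3 matches to CAGGTG. Among the luminal libraries the same promoter stood at percentiles of 89.1 (BM1), 91.4 (BM5), 79.3 (BM3) and 92.9 (BM7), so a peak was called in every library except the pair from Lats1-CKO basal-like cells.

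Cldn3 (ENSMUSG00000070473), which encodes the tight junction protein claudin-3, had the highest percentiles of the lost list genes, at 92.0 in BM2 and 87.0 in BM6. Both Lats1-CKO basal-like libraries lacked it, and BM3 and BM7 had it at 73.3 and 32.2. Epcam (ENSMUSG00000045394), which encodes the epithelial adhesion molecule EpCAM, stood at 66.1 in BM2 and at a low 22.5 in BM6. Krt18 (ENSMUSG00000023043), which encodes a keratin of simple epithelia, stood at 57.6 and 51.0. Krt8, the partner keratin, was not lost, with percentiles of 65.5 and 31.4 in WT and 50.3 and 43.0 in Lats1-CKO cells.

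Esrp2 (ENSMUSG00000084128), an epithelial splicing regulator, was at percentiles of 65.5 in BM2 and 38.7 in BM6 and had 2 separate lost regions near its start. Its paralog Esrp1 was not lost, since BM8 had a promoter peak at 97.7, above the values of 85.3 in BM2 and 58.2 in BM6, while BM4 had none. Ocln (ENSMUSG00000021638), which encodes occludin, stood at 45.0 in BM2 and 37.5 in BM6. Marveld2 (ENSMUSG00000021636), which encodes tricellulin, stood at 77.7 and 34.7. Spint1 (ENSMUSG00000027315), an inhibitor of membrane serine proteases, was weak in WT cells too, at 31.4 and 17.9. All 8 lost promoters had a peak in BM1, BM5 and BM7, and 4 of them had one in BM3.

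**Figure D2:**
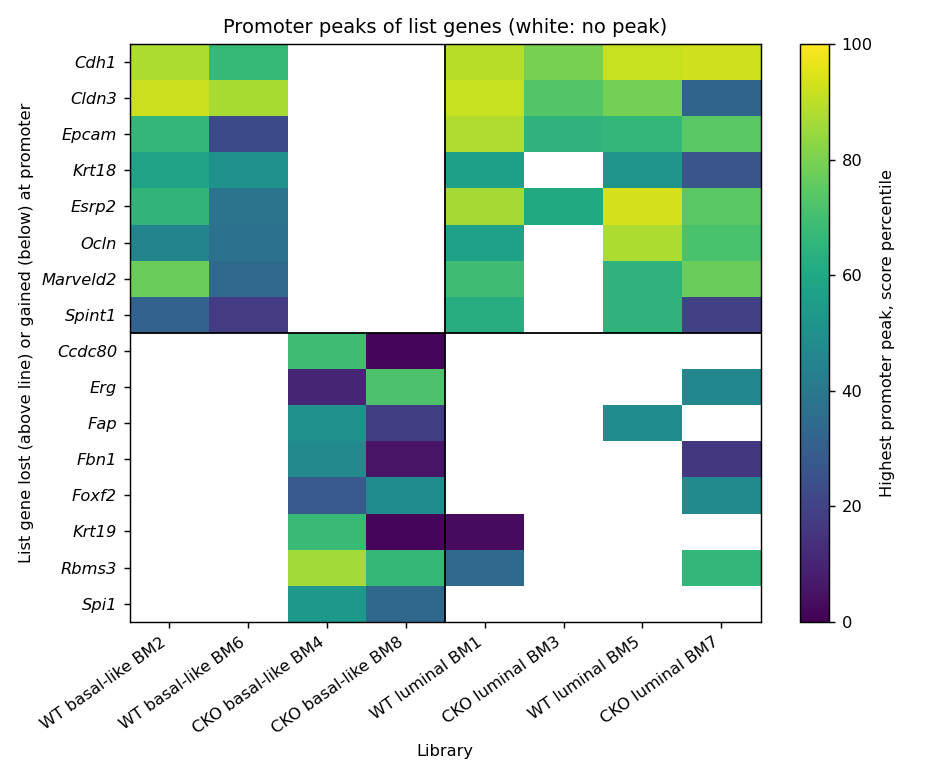
Score percentile of the highest peak within 1 kb of a TSS (color scale from 0 to 100, white where no peak was called) for 8 list genes lost (above the line) and 8 gained (below) at promoters, in the 4 basal-like libraries and, right of the vertical line, the 4 luminal ones. The 8 lost genes are white in BM4 and BM8 and colored in BM1, BM5 and BM7.

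The loss at epithelial promoters was uneven between the Lats1-CKO libraries. Of the 25 junction and splicing genes, 23 had a promoter peak in BM2, 16 in BM6, 9 in BM4 and 16 in BM8, so BM6 and BM8 did not differ in this count. Of the 25 luminal markers, 20 had one in BM2, 15 in BM6, 13 in BM4 and 13 in BM8. Cgn, Pard6b and Ovol2 had a peak in all 4 libraries but a lower rank in both Lats1-CKO libraries, and no junction gene had a higher rank in both. Of the luminal markers with a peak in all 4 libraries, Muc1 and Xbp1 ranked higher and Elf3, Tfap2c and Areg lower in both Lats1-CKO libraries. Among all 10487 coding genes with a promoter peak in all 4 libraries, ranks did not overlap between genotypes for 18% upward and 16.8% downward. Gata3, a regulator of luminal fate, kept strong peaks in all 4 libraries, at 95.5 in BM2, 84.1 in BM6, 97.0 in BM4 and 94.6 in BM8. With peaks allowed up to 5 kb from a TSS, 1 luminal marker and 2 junction genes were lost (0.34% of coding genes were lost and 2.42% gained with this window), as Cdh1, Cldn3, Epcam, Esrp2 and Spint1 then had a peak in all 4 libraries.

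Basal and myoepithelial markers did not move as a group. None of the 25 was gained or lost, 14 had a promoter peak in all 4 libraries, and 18, 17, 18 and 18 had one in BM2, BM6, BM4 and BM8. Krt14, a basal keratin, had percentiles of 52.6 and 17.9 in WT and 30.0 and 82.0 in Lats1-CKO libraries, so the groups overlapped. Krt5 and Trp63, which also define basal cells, had no peak within 1 kb of a TSS in any of the 4 libraries. With peaks allowed up to 5 kb from a TSS, Trp63 was gained, the 1 gained member of the list, and 0 were lost. Over all coding genes 2.42% were gained and 0.34% lost with that window. Snai2, Id4 and Nrg1 of the same list had a promoter peak in all 4 libraries. Itga6, which encodes the sorted antigen CD49f, was at 88.4 and 77.3 in WT and 63.5 and 79.4 in Lats1-CKO cells. Of the 14 promoters with a peak in all 4 libraries, those of Itga6 and Nrg1 ranked lower in both Lats1-CKO libraries. Those of Mylk, Tpm2 and Cav1 ranked higher in both. Among all coding genes with such peaks 16.8% ranked lower and 18% higher in this way.

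Mesenchymal and fibroblast genes had promoter peaks more often in BM4 than in the other basal-like libraries. Of 28 genes, 15 had one in BM2, 14 in BM6, 22 in BM4 and 16 in BM8. Fap, a serine protease of fibroblasts, and Fbn1, which encodes the matrix protein fibrillin-1, were gained (7.14% of the list, against 1.67% of coding genes). Fap stood at 50.3 in BM4 and 18.5 in BM8, and Fbn1 at 46.9 and 5.2, so in both genes the peak of BM8 was weak, and neither was gained with equal numbers of peaks. Thy1, Mmp14 and Postn had a peak in BM4 alone, and Col3a1 and Lum had one in none. Of the 12 genes with a peak in all 4 libraries, Cdh2, S100a4 and Pdgfra ranked lower in both Lats1-CKO libraries. Fn1 and Col6a2 ranked higher in both. The shares over all coding genes with such peaks were 16.8% lower and 18% higher. Immune markers had a promoter peak in 2, 1, 5 and 7 of 17 genes in BM2, BM6, BM4 and BM8. Of the 17, 2 were gained (11.8%), among them Spi1, at 53.2 in BM4 and 33.7 in BM8. Itgam, Cd3e and Tyrobp had no peak in any of the 4. Endothelial markers had one in 4, 3, 8 and 4 of 13 genes. Erg alone was gained (7.69%), at 10.3 in BM4 and 72.1 in BM8, and Cdh5, Cldn5 and Emcn had no peak. Neither Spi1 nor Erg was gained with equal numbers of peaks. The part of other cells in the results was not tested.

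Among EMT transcription factors, none of 17 was gained or lost and 11 had a promoter peak in all 4 libraries. Snai1 stood at percentiles of 87.5 and 81.5 in WT and 84.9 and 94.5 in Lats1-CKO libraries, and Zeb2 at 94.6 and 88.0 against 95.6 and 89.4. Zeb1 had a peak in BM2, BM4 and BM8, at 40.9, 45.1 and 40.4. Twist2 had none in BM6, a weak peak at 10.9 in BM2, and peaks at 46.6 in BM4 and 67.0 in BM8. This made it a gained gene only with equal numbers of peaks, where Klf8 of the same list was lost. In that setting 0.653% of all coding genes were gained and 0.952% lost.

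Targets of YAP and TAZ included 3 gained promoters of 22 (13.6%, against 1.67% of coding genes). Of these, 1 held with equal numbers, where 0.653% of coding genes were gained. Rbms3, which encodes an RNA-binding protein, was the one that held, at 86.2 in BM4 and 66.4 in BM8 and with no peak in BM2 or BM6. Foxf2, a forkhead factor, stood at 27.8 and 48.1. Ccdc80 stood at 69.1 in BM4 and at 1.8 in BM8. Ccn1 and Ccn2, the usual reporters of YAP activity, had a peak in every basal-like library, at 69.6, 43.4, 68.6 and 78.2 and at 65.7, 65.4, 71.9 and 81.9 in BM2, BM6, BM4 and BM8. Of the list, 16 promoters had a peak in all 4 libraries, of which 1 ranked higher and 2 lower in both Lats1-CKO libraries. Among all coding genes with such peaks 18% ranked higher and 16.8% lower in this way.

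Genes of the Hippo pathway itself had open promoters throughout. Of 27 members, 23 had a peak in all 4 libraries and none was gained or lost. Both Lats1-CKO libraries ranked higher for 7 members, Lats1, Lats2, Mob1a, Nf2, Sav1, Tead3 and Wwtr1, and lower for Taok2. Lats2, the paralog of Lats1, stood at 57.3 and 70.2 in WT and 81.7 and 85.5 in Lats1-CKO libraries. Sav1, which encodes a scaffold of the Hippo kinases, stood at 40.5 and 10.3 against 52.6 and 83.4. Wwtr1, which encodes TAZ, stood at 83.9 and 79.4 against 95.8 and 94.6. The share of 7 in 23 is to be read beside the 18% of all coding genes that ranked higher in the same way.

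The 7 genes that the study named as repressed by NCOR1, a nuclear corepressor, were not gained or lost. They were chosen by the study on these cells and are not independent evidence of a direction. Oxtr, the oxytocin receptor, had no peak in BM2 and stood at 69.9 in BM6, 82.7 in BM4 and 92.4 in BM8. Pdgfrb, a receptor of mesenchymal cells, stood at 22.3 and 62.0 in WT and 89.9 and 49.7 in Lats1-CKO libraries, and the groups overlapped. Col5a1, a fibrillar collagen, stood at 10.5 and 40.3 against 77.5 and 35.8. Fads1, a fatty acid desaturase, stood at 70.6 and 80.7 against 94.4 and 80.7. Ccna2, which encodes cyclin A2, was near the top everywhere, at 99.6, 99.4, 99.8 and 99.5. Sema6a, a transmembrane semaphorin, was at 99.3 and 96.9 in WT and 96.0 and 96.7 in Lats1-CKO cells. Twist2, also of this list, is described above. The promoter of Ncor1 itself stood at 68.0 and 59.1 against 78.5 and 67.3.

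The remaining lists held few changes. Neither the 12 corepressor genes, the 15 AP-1 factors, the 21 genes of the TGF-beta pathway nor the 15 genes of absent tissues had a gained or lost promoter with all peaks. With equal numbers of peaks Batf3 of the AP-1 factors was lost, as were 0.952% of all coding genes. All 12 housekeeping promoters had a peak in all 4 libraries when all peaks were used.

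Over all coding genes, the 10 lost promoters with the highest smaller WT percentile included those of Dmrta2, Cldn3, Tfcp2l1, Atp13a5, Cdh1, Zbtb8b, 1700001C19Rik and AI661453. Tfcp2l1, of the CP2 family of transcription factors, stood at 80.9 in BM2 and 71.6 in BM6. Dmrta2, a DMRT-family transcription factor, stood at 89.5 and 92.2. The pair 1700001C19Rik and AI661453 shares 1 peak, at 66.4 in BM2 and 67.2 in BM6. All 10 had a peak in BM1, BM5 and BM7, and 8 had one in BM3. All 10 were also lost with equal numbers of peaks, which their high percentiles fixed in advance.

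The 10 gained promoters with the highest smaller Lats1-CKO percentile were those of Siglecg, Msantd1, Slc2a13, Prkag3, Amhr2, Irx6, Ptger1, Lif, Slc2a5 and Ehmt2. They share no list used here. Siglecg, a lectin of B cells, stood at 89.1 in BM4 and 83.6 in BM8. Lif, a cytokine of the interleukin-6 family, stood at 68.6 and 75.4. Slc2a13 and Slc2a5, which encode transporters of inositol and fructose, stood at 77.6 and 78.1 and at 68.4 and 91.4. Ehmt2, which encodes a histone H3 lysine methyltransferase, stood at 69.3 and 67.5. All 10 were gained with equal numbers too, which their high percentiles likewise fixed in advance. Of these 10, 9 had a peak in BM7 and 5 in BM1. Of all 364 gained genes 73 were gained with equal numbers of peaks, and of the 97 lost genes 62 were lost. These shares cannot be compared either, since the cut removes peaks of BM4 and BM8 but none of BM6.

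The luminal libraries, which played no part in the definition, had peaks at lost regions more often than at gained ones. A peak was present at 81.1% of lost regions in BM1, 52.4% in BM5 and 72.1% in BM7. For gained regions the shares were 24.4%, 13.9% and 51.1%. Regions with a peak in 1 WT and 1 Lats1-CKO library, which like the other classes rest on 2 libraries, lay between them at 48.6%, 27.5% and 54.9%. BM3, with 14753 peaks in all, had a peak at 12.1% of lost, 0.661% of gained and 1.65% of such mixed regions. With equal numbers of basal-like peaks the order was the same, at 88.6% against 42.4% in BM1, 60.0% against 23.8% in BM5, 13.3% against 1.73% in BM3 and 82.9% against 75.3% in BM7. The gap in BM7, a Lats1-CKO library, was the smallest of BM1, BM5 and BM7. It turned when BM2 was left out, with 36.2% of lost against 62.7% of gained regions, and when BM6 was left out, with 37.4% against 59.6%.

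**Figure D3:**
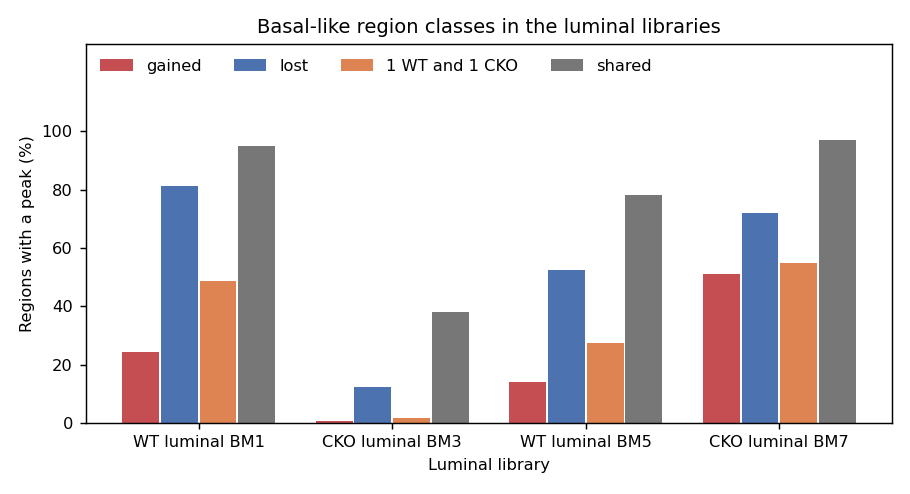
Percent of basal-like regions of each class with a peak in each luminal library. The class of 1 WT and 1 CKO holds the regions with a peak in 1 library of each genotype. Lost regions (blue) stand above gained regions (red) in all 4 libraries, for example 81.1% against 24.4% in BM1.

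Lost regions lay within 1 kb of a TSS more often than gained ones. Their median distance to a TSS was 7827 bp against 8791 bp for gained regions with all peaks. With equal numbers of peaks that order turned, at 7867 bp for lost and 7440 bp for gained regions. Within 1 kb of a TSS lay 23.5% of lost, 16.2% of gained, 41.7% of shared and 20.7% of all merged regions. The remaining 1249 lost regions (1.06% of 117956 distal regions) and 7862 gained regions (6.67%) were distal. The distal regions shown next are 2 of the 5 lost and 2 of the 5 gained ones with the highest smaller percentile, chosen because they hold the motif set in capitals, which is CAGGTG in lost regions and the AP-1 motif TGANTCA in gained ones. AP-1 is not particular to gained regions, with matches in 36.2% of lost and 34.1% of gained distal regions. The lost window in Tmprss11e also holds 1 AP-1 match, left unmarked. Each is the central 200 bp on the plus strand of GRCm38.
lost region in Tmprss11e, chr5:86741243-86741442: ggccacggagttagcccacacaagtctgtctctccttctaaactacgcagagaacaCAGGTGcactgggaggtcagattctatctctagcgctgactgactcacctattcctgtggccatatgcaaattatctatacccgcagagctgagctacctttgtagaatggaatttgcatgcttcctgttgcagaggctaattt
lost region nearest to Slc39a11, chr11:113232127-113232326: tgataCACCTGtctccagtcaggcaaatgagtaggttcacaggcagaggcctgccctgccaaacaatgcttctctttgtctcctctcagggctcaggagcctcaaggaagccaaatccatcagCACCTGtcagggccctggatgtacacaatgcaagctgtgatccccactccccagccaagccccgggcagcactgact
gained region in Ptprm, chr17:66844149-66844348: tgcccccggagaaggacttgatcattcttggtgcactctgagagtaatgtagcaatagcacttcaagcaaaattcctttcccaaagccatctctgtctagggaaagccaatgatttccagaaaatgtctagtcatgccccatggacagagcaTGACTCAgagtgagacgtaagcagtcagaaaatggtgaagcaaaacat
gained region in Ap2a2, chr7:141564628-141564827: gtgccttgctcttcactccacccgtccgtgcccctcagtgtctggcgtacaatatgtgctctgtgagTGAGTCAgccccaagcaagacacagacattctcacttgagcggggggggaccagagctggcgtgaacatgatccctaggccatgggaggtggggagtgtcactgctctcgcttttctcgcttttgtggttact

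The lost region in Tmprss11e, a membrane serine protease gene of epithelia, lies in an intron 4373 bp from the TSS and had percentiles of 98.9 in BM2 and 88.7 in BM6. Its luminal percentiles were 99.9 (BM1), 98.6 (BM5), 87.9 (BM3) and 99.2 (BM7), so it was among the strongest regions of every library except BM4 and BM8. The lost region nearest to Slc39a11, a zinc transporter gene, lies outside any gene, 333366 bp from its TSS, at 97.4 in BM2 and 82.3 in BM6, and holds 2 matches to CAGGTG. Like the first it had a peak in all 4 luminal libraries, at 98.1 (BM1), 94.2 (BM5), 84.6 (BM3) and 98.5 (BM7). The other top lost regions were nearest to Ano5, 3110018I06Rik and Car10. The gained region in an intron of Ptprm, a receptor tyrosine phosphatase gene, stood at 90.0 in BM4 and 92.1 in BM8, and that in an intron of Ap2a2, an adaptor subunit of endocytosis, at 87.6 and 94.0. The other top gained regions were nearest to Cdk5rap1, Slc38a6 and Prkar1b, and that near Cdk5rap1 ranked first, at 97.3 and 95.0. All 5 gained regions had a peak in BM7 and none had one in BM3 or BM5. In BM1, a WT luminal library, those at Ptprm, Slc38a6 and Prkar1b had a weak peak, at 6.6, 15.4 and 8.9.

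The E-box set lost regions apart. Of 18 short motifs searched in the central 200 bp of distal regions, CAGGTG differed most between classes, being present in 34.3% of lost, 7.96% of gained, 12.5% of shared and 11.4% of all merged distal regions. The motif was searched on both strands, and when followed by GC it also holds the CTCF motif searched, AGGNGGC, which was present in 16.5% of lost and 18.2% of gained distal regions. Within 1 kb of a TSS it was present in 41.4% of lost, 8.16% of gained and 12.7% of all regions. The other E-box searched, CATCTG, the form tied to TWIST factors, showed no such gap, at 18.5% of lost, 19.1% of gained and 18.6% of all distal regions.

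The share with CAGGTG followed the presence pattern. Distal regions with a peak in both WT libraries alone had it at 34.3%, those of BM2 alone at 26.1% and those of BM6 alone at 15.5%. Those of BM4 alone had it at 7.28% and those of BM8 alone at 7.32%. Regions of both WT libraries and BM8 stood at 18.8%, and those of both WT libraries and BM4 at 15.9%. Of the 15 patterns, the 3 without any WT peak had the lowest shares. With equal numbers of peaks per library, 16.3% of distal peaks had it in BM2 and 14.2% in BM6, against 9.05% in BM4 and 9.60% in BM8. The group means were 15.3% ± 1.51 in WT and 9.33% ± 0.392 in Lats1-CKO cells (SD, n = 2 each). The groups did not overlap, and the two-sided exact permutation p was 0.333, the smallest this design allows. Over the 24 measures compared in this way the Benjamini-Hochberg adjusted p of this permutation test was 0.727, and 6 of the 18 motifs did not overlap between the groups. Leaving out 1 library gave 20.3% (without BM2) to 27.1% (without BM6) of lost distal regions with CAGGTG, against 34.3% with all libraries.

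**Figure D4:**
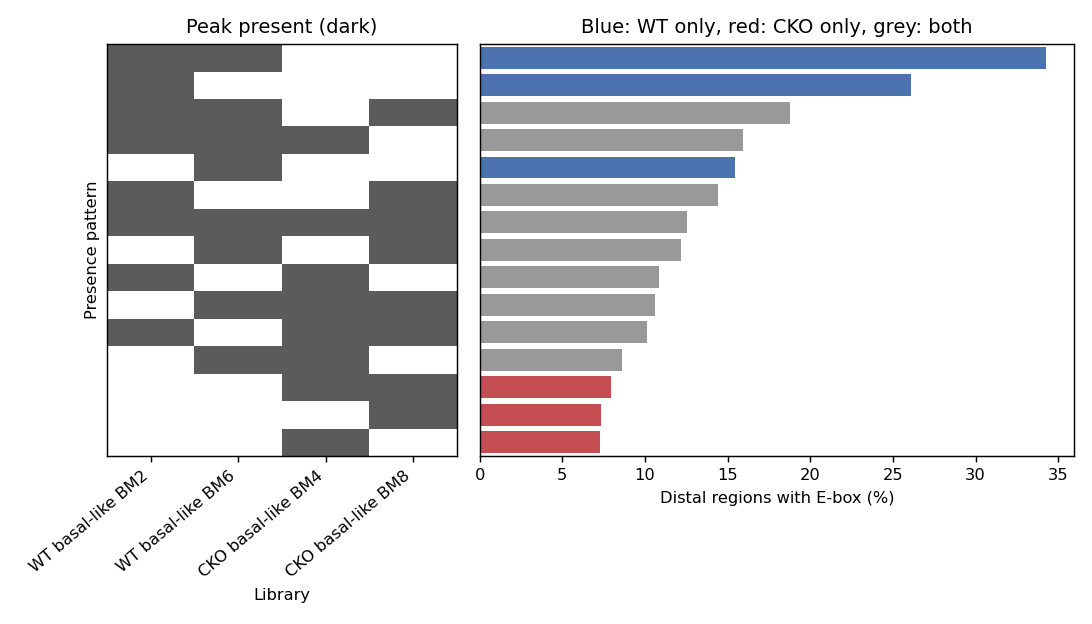
Percent of distal regions with the SNAI/ZEB E-box (right, bars) for each of the 15 combinations of basal-like libraries that had a peak (left, dark cells). Bars of WT-only patterns (blue) reach 34.3%, and the 3 patterns with peaks in Lats1-CKO libraries only (red) stand lowest, at 7.28% to 7.96%.

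Lost distal regions with CAGGTG had a luminal peak more often than lost distal regions without it. Of the 428 such regions, 90.7% had a peak in BM1, 65.0% had one in BM5, 17.5% in BM3 and 82.2% in BM7. Of the 821 lost distal regions without it, 76.0%, 46.4%, 7.43% and 66.4% had one. Gained regions showed a like difference at lower shares, at 35.5% with and 21.9% without the motif in BM1.

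Some other motifs were also more frequent in lost regions. The half-site of NF1 factors, TTGGCA, was present in 29.5% of lost, 15.5% of gained and 18.2% of all distal regions. A SOX motif, ACAATGG, was present in 6.89%, 1.88% and 3.36%, and the GRHL motif AACCNGTT, bound by grainyhead-like factors of epithelia, in 3.44%, 0.903% and 1.55%. With equal numbers of peaks these 3 motifs kept the order, at 27.7% of lost against 15.1% of gained regions for NF1, 6.32% against 1.24% for SOX and 3.14% against 0.783% for GRHL. TEAD sites, GGAATG, through which YAP and TAZ act, were present in 19.6% of lost, 18.3% of gained and 17.9% of all distal regions. AP-1 sites were present in 36.2%, 34.1% and 32.5%. AP-1 followed another split of the libraries, with 46.5% of the distal peaks among the highest-scoring ones in BM2 and 43.2% in BM4, against 31.5% in BM6 and 33.9% in BM8. This split crosses the genotypes, and nothing in the labels pairs these libraries. Motifs are matches to letters and do not show which factor, if any, was bound.

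**Figure D5:**
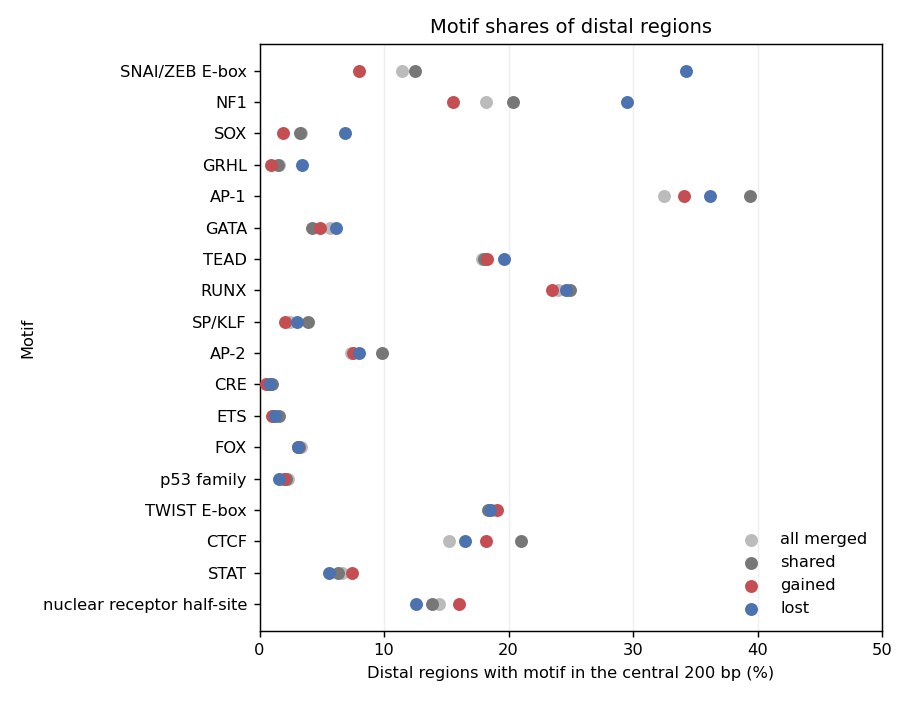
Percent of distal regions of each class (points) whose central 200 bp hold each of 18 motifs, ordered by the difference between lost (blue) and gained (red). The SNAI/ZEB E-box stands at 34.3% of lost and 7.96% of gained regions, and NF1, SOX and GRHL follow.

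By nearest protein-coding gene, distal gained regions were spread over 4926 genes, of which 676 had 3 or more. Genes with more distal regions nearby can hold more of every class, so each count is given with the gene's total. Myc, the growth regulator, was nearest to 15 of them among its 112 distal regions. Dysf had 12 of 45, Trib2 12 of 76 and Rora 11 of 62. Gas7 had 10 of 44, Lpp 10 of 91, Mreg 10 of 43, Ncam1 10 of 47 and Zmiz1 10 of 96. The tenth, Cops8, with 9 of 30, shares its count of 9 with others and was placed by name. The fewer lost distal regions were spread over 1070 genes, of which 28 had 3 or more. The highest count was 4, at Adgrl3 (of 65), Cntn5 (of 28), Ncam2 (of 37) and Ntrk2 (of 14). The next places, all at 3 and placed by name, were 3110018I06Rik (of 19), Adgrl2 (of 92), Bach2 (of 52), Ephb3 (of 19), Fggy (of 36) and Khdrbs3 (of 39). Among luminal markers, 9 of 269 distal regions were lost (3.35%) and 11 were gained (4.09%). The background over all distal regions was 1.06% and 6.67%. Tfap2c, a luminal transcription factor gene, had 3 of these lost regions. For basal and myoepithelial markers 2 of 411 were lost (0.487%) and 31 were gained (7.54%).

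Gained and lost regions were spread over all chromosomes in unequal shares. Chromosome 15, which carries Myc, had the highest share of gained regions, at 8.34% of its merged regions, and chromosome 4 the lowest, at 4.55%. Chromosome 13 had the highest share of lost regions, at 1.90%, and chromosome 17 the lowest, at 0.683%. With equal numbers of peaks chromosome 13 still had the highest share of lost regions (5.78%), while chromosome 12 had the highest share of gained ones (4.28%). Chromosome 13 held 4.84% of all peaks in BM2, 4.59% in BM6, 3.73% in BM4 and 4.58% in BM8, and copy number was not tested.

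Shared regions showed no difference in score that passed the test. The highest score of each of the 30612 shared regions was ranked within its library, turned into a normal score and compared with limma. No region had a Benjamini-Hochberg adjusted p under 0.05 (smallest 0.951), and 1580 (5.16%) had an unadjusted p under 0.05. With log2 scores after quantile normalization the counts were again 0, and 1611 unadjusted. Without BM4 3 regions passed the adjusted threshold, and without BM8 13 did. Ranks did not overlap between genotypes in 5316 regions higher in both Lats1-CKO libraries (17.4%) and 5007 lower in both (16.4%). With percentiles among all peaks in place of ranks among shared regions, the split was 33.9% higher and 6.99% lower. Across these regions the correlation of normal scores was 0.628 between BM2 and BM6 and 0.554 between BM4 and BM8, while pairs of different genotype had 0.566 to 0.611. Libraries of the same genotype were thus not uniformly more alike than libraries of different genotype.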

How the data were processed

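ATAC-seq was done on 8 libraries, of which the 4 basal-like ones were compared (2 WT and 2 Lats1-CKO). Per the labels and methods, the authors trimmed reads (cutadapt), aligned them uniquely to mm10 (Bowtie 1.0.0), removed mitochondrial and duplicate reads (Picard 2.3.0) and long fragments, called peaks per library (MACS2, 2.1.1.20160309 in the submitters' processing notes and another version in the methods) and removed blacklisted regions. The deposited score of each peak, taken from its values to be that of MACS2, is not normalized between libraries and was used only as a rank. Depth per library is unknown.

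Peaks overlapping by 1 bp or more were merged. GENCODE M21 gave the TSSs, and GRCm38.p6 the sequence of the central 200 bp in which motifs were matched on either strand. Library measures were compared by two-sided exact permutation tests, and scores of shared regions with limma 3.58.1 (R 4.3.3). Sequences were read with pysam 0.24.0 and samtools 1.23.1, tests and tables were made with scipy 1.17.1, pandas 2.3.3 and numpy 2.4.6 under python 3.11.15. Classes and the limma step were tested on simulated data.

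Members and gene lists were chosen with earlier results of these data known. Named genes were those of the study and the sort, list genes gained or lost at promoters, the 10 gained and 10 lost promoters and 5 gained and 5 lost distal regions with the highest smaller percentile in the defining libraries, the 10 genes nearest to most gained and most lost distal regions, and up to 5 shared regions in each direction past the limma threshold, which none passed. Other list members named beside them illustrate their list and were chosen after their values were seen. Some genes that these rules name are not reported here. Alternatives were equal numbers of peaks, each library left out, score and overlap thresholds, other windows and gene sets, and other score scales.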

Additional observations from a re-analysis of the deposited data

How the results depend on the processing

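Leaving out each basal-like library in turn gave 13011 to 43296 gained and 3852 to 13695 lost regions, and gained minus lost regions from -684 (without BM6) to 39444, against 7748 with all libraries. It gave 583 to 917 genes gained and 189 to 350 genes lost at promoters, 4 to 7 lost luminal markers, 4 to 8 lost junction and splicing genes, 0 to 13 shared regions past the limma threshold (3 without BM4 and 13 without BM8, with 1 library left in that group and assumed to vary like the other group), CAGGTG in 20.3% to 27.1% of lost and 7.44% to 8.76% of gained distal regions, and a peak in BM7 at 36.2% to 86.4% of lost and 21.3% to 62.7% of gained regions. The share with CAGGTG was higher in lost than in gained regions under each alternative it was computed for (equal numbers, each library left out, the doubled window, all regions, and both peaks highest-scoring).

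With equal numbers of peaks gained minus lost regions was -693, from 2656 and 3349, with 142 genes gained and 207 lost. Then 75.3% of gained and 82.9% of lost regions had a peak in BM7, CAGGTG was in 6.81% and 27.8% of them when distal, and 18.2% of gained regions lay within 1 kb of a TSS. Peaks at or above the median score gave 5506 gained, 787 lost and 15934 shared regions, a difference of 4719. Requiring both defining peaks to be among the highest-scoring, an alternative added after seeing the data, gave 1846 gained regions, a difference of 690, BM7 shares of 72.4% and 77.1%, and CAGGTG in 6.33% of gained regions. With TSSs of protein-coding genes only, 13.2% of gained and 19.5% of lost regions lay within 1 kb. Doubling the window to 400 bp gave CAGGTG in 17.5% of gained and 46.5% of lost regions. A window of 5 kb, for these lists also added after seeing the data, left 1 luminal marker and 2 junction genes lost, and all annotated genes gave 668 gained and 157 lost.

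With percentiles among all peaks no shared region passed limma, but 33.9% were higher and 6.99% lower in both Lats1-CKO libraries. No paired analysis was possible because the labels give no replicate numbers and nothing in them ties a WT to a Lats1-CKO library. Depth limits every absence of a peak, and 2 libraries per group limit every test.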
